A study of Mus musculus with 6 samples.

Results

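The unfolded protein response and the integrated stress response were followed in advanced embryonic stem cells (ASCs), mouse pluripotent cells, with and without *Bdh2*, which encodes a 3-hydroxybutyrate dehydrogenase. A fixed list of 45 gene names was taken, and every name was found among the 54715 genes of the deposited count table. The name *Ddit3* stands on 2 rows, so 46 rows carry a member's name. The second *Ddit3* row, for a short gene model, had 0 counts in every library, and the values of *Ddit3* are those of the first. By their known roles the members fall into 6 stress sensors, 9 transcription factors and subunits of the eIF2α phosphatase, 11 ATF4 targets, 15 endoplasmic reticulum (ER) chaperones and folding enzymes, and 4 genes of ER-associated degradation. All 45 had enough counts to be tested.

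RNA was sequenced from 3 replicates of WT ASCs (genotype wild type) and 3 replicates of *Bdh2*-knockout ASCs (genotype Bdh2-/-). Per the labels the cells of both genotypes go back to a 129/sv female crossed with a GOF/GFP male, which carries a green reporter driven by *Oct4* elements. Both were grown in the same medium with leukemia inhibitory factor, activin A, BMP4 and the inhibitor CHIR99021, and the knockout line that the study carried forward was 1 clone with a small deletion near the start codon on both alleles, made with CRISPR/Cas9. The labels do not say whether replicates were separate cultures, so the p-values measure only the spread between these libraries, and a trait of the clone and the loss of *Bdh2* cannot be told apart.

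The ER folds secreted and membrane proteins. When unfolded proteins build up, the membrane sensors IRE1 (*Ern1*), PERK (*Eif2ak3*) and ATF6 (*Atf6*) raise the production of chaperones and of the machinery that removes misfolded proteins, partly through the transcription factor XBP1. PERK and its relatives HRI, PKR and GCN2, which answer to heme or mitochondrial trouble, double-stranded RNA and missing amino acids, phosphorylate eIF2α. This lowers general translation and favors translation of ATF4, which drives genes of amino acid import and synthesis and, under lasting stress, CHOP (*Ddit3*). Gene counts show transcript levels only. Splicing of *Xbp1*, cleavage of ATF6 and phosphorylation of eIF2α were not measured in these data.

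Short DNA elements mark the promoters of the ER and of the ATF4 arm, and they are shown for members of each arm. The ER stress element (ERSE), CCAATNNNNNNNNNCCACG, is read by ATF6 and XBP1 together with NF-Y. The C/EBP-ATF response element (CARE), searched as TGATGNAA, is bound by ATF4 with a C/EBP partner. Both strands of the 250 bases before each RefSeq transcript start on GRCm38.p6 were searched. No window was used for *Manf*, *Atf6*, *Wars*, *Slc7a5*, *Hyou1* and *Ppp1r15b*. An ERSE lay in 8 of the other 39 members (8 of their 43 windows), against 0.113% of all 32851 windows. These were *Hspa5*, *Calr*, *Creld2*, *Canx*, *Hsp90b1*, *Dnajc3*, *Pdia6* and *Syvn1*. A CARE lay in 7 members (7 of the 43 windows), *Chac1*, *Asns*, *Fgf21*, *Atf3*, *Vldlr*, *Herpud1* and *Aars*, against 3.45% of all windows. *Vldlr* has windows at different starts, and its CARE was in only 1 of them. The related ERSE-II, ATTGGNCCACG, was found in *Herpud1* (0.0304% of all windows), and the XBP1 element TGACGTGG was in 0 member windows (0.563% of all windows). A match describes letters and not a bound site. Since the elements are known to mark such promoters, the shares are a description and no test. In the ERSE windows below the capitals mark the element, on the strand of the gene, with 20 bases on each side. Where the element faces the other way it reads as its reverse complement, as in *Calr* and in one of the *Hsp90b1* copies. The windows are those of *Hspa5* (chr2:34772005-34772063, plus strand), *Calr* (chr8:84847055-84847113, minus strand), *Hsp90b1* (chr10:86705618-86705676 and chr10:86705513-86705571, minus strand) and *Pdia6* (chr12:17266471-17266529, plus strand).
Hspa5: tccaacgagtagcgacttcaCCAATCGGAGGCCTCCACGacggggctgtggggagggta
Calr: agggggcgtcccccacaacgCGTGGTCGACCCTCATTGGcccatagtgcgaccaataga
Hsp90b1 distal: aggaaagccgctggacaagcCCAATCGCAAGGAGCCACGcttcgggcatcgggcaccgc
Hsp90b1 proximal: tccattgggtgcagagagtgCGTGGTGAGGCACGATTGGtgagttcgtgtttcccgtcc
Pdia6: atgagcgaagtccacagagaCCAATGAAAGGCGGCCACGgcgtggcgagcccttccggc

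Of the ATF4 arm, CARE windows are shown for *Chac1* (chr2:119351029-119351076, plus strand), *Asns* (chr6:7693210-7693252, minus strand, cut at the transcript start), *Fgf21* (chr7:45615602-45615649, minus strand) and *Aars* (chr8:111033710-111033757, plus strand). *Aars* is the member with a CARE whose transcript did not pass the test. *Herpud1* (chr8:94386297-94386344 and chr8:94386357-94386407, plus strand) is shown with its CARE and its ERSE-II, an ER gene that fell. Capitals again mark the elements.
Chac1: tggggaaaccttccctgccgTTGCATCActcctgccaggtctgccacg
Asns: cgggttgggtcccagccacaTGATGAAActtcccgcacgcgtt
Fgf21: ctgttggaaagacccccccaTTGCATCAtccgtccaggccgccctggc
Aars: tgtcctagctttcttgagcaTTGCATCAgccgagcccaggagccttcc
Herpud1 CARE: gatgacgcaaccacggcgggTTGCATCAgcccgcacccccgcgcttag
Herpud1 ERSE-II: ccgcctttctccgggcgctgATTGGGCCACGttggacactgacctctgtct

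The libraries held 18927748 to 24945216 counts in WT ASCs and 24320119 to 28333541 in *Bdh2*-knockout ASCs, and 3 counts correspond to at most 0.155 CPM (counts scaled to library size, with TMM factors). Reads of *Bdh2* numbered 203, 193 and 209 in the WT and 164, 136 and 129 in the knockout libraries (log2 fold change -0.79, edgeR adjusted p = 2.46e-04), so its transcript was lower in the knockout but still present. Of 10 pluripotent cell markers 5 were higher, with *Sall4* (0.66) the most changed, 1 was lower (*Dppa5a*, -0.19) and 4 did not pass, where 21.0% of all tested genes were higher and 20.8% lower. Their sum was 7101 to 7190 CPM in WT ASCs and 7165 to 7341 CPM in *Bdh2*-knockout ASCs. All 14 primitive endoderm markers rose, and their sum went from 768 to 844 CPM in WT ASCs to 1392 to 1518 CPM. Transcripts of adult hepatocyte markers were uneven between libraries, and the cells they came from were not tested. The 14 markers summed to 535, 327 and 52.4 CPM in WT and to 43.3, 158 and 31.1 CPM in knockout replicates 1 to 3. While 11 of the 14 passed the test as lower, 0 separated the genotypes without overlap. A fit with a hepatocyte score as covariate was therefore set beside the counts of members.

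With calls made by edgeR's quasi-likelihood test at a Benjamini-Hochberg adjusted p of under 0.05, over 16758 tested genes, 30 of the 45 members differed between the genotypes, which is 66.7% against 41.7% of all tested genes. Transcripts of 20 members fell in *Bdh2*-knockout ASCs (44.4%, against 20.8% of all tested genes), and 10 rose (22.2%, against 21.0%). The share of lower members was above the background and that of higher members near it. WT and knockout libraries did not overlap in 32 of the 45 members, where 52.4% of all tested genes did not overlap. Log2 fold changes reached 0.5 in either direction in 12 called members, of which 11 members were lower (24.4% against 9.01% of all tested genes) and 1 higher (2.22% against 6.45%). When the null was a change of up to 1.2-fold, 11 lower and 2 higher members remained, beside 7.59% and 7.07% of all tested genes. With the hepatocyte covariate 20 were lower and 9 higher, beside 14.9% and 15.9% of all tested genes. Scaling by library totals alone gave 21 lower and 8 higher members, beside 26.6% and 16.3% of all tested genes, and over all genes it moved the share of called genes that were higher from 50.3% to 38.0%. Under all 15 alternatives 10 members were called lower and 2 higher, beside 5.64% and 6.03% of all tested genes. Well-expressed genes are called more readily, and of the 12718 genes whose mean count reached 50, 50% were called.

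**Figure D1:**
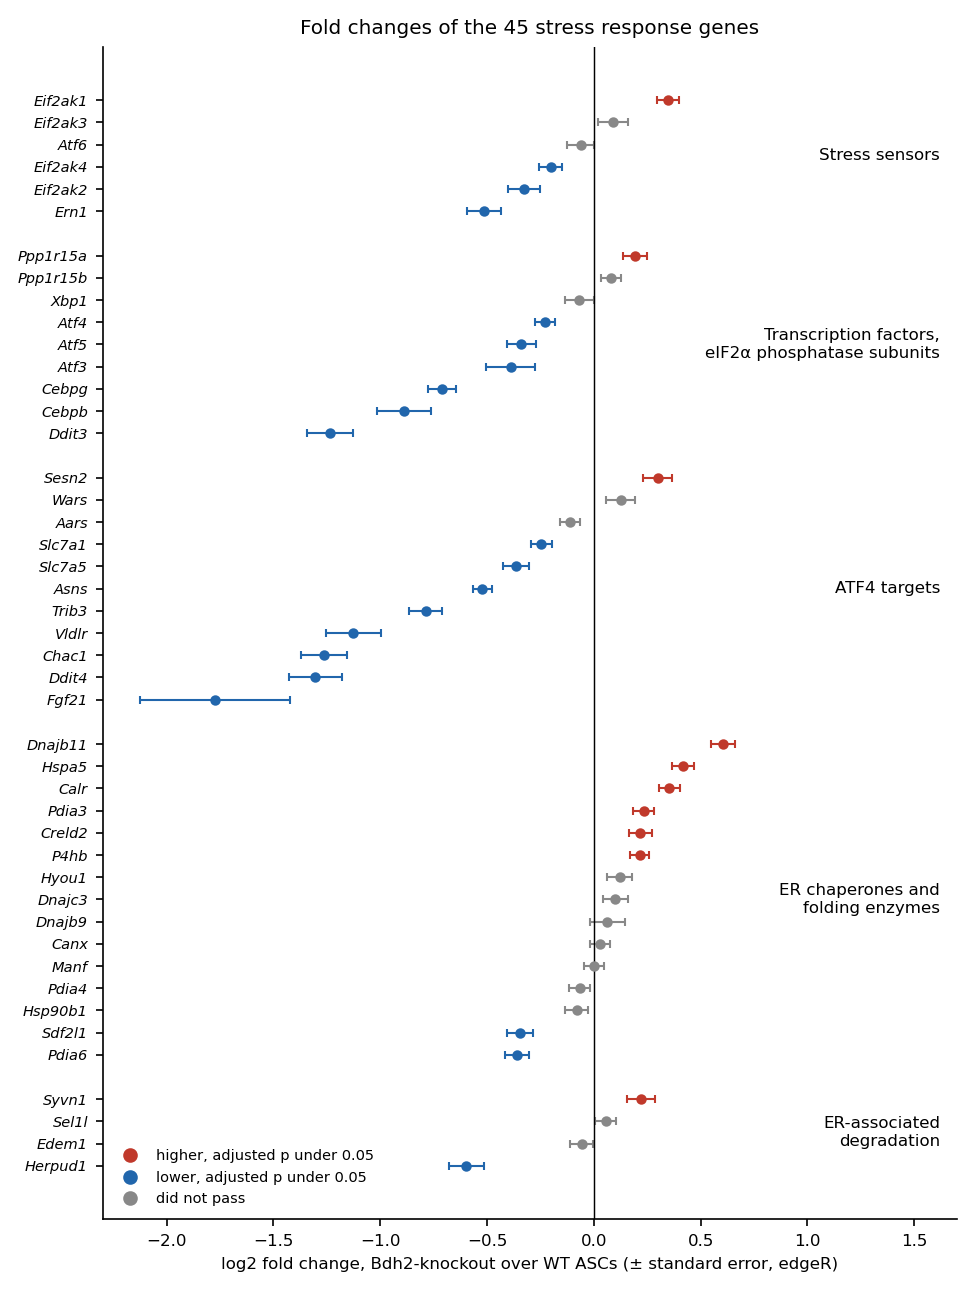
Log2 fold changes of the 45 members (points, Bdh2-knockout over WT ASCs) with the standard error of edgeR's fit (bars, 3 against 3 libraries), grouped by role. ATF4 targets and stress transcription factors extend to the left as far as -1.77 (Fgf21), while ER chaperones stay between -0.36 and 0.60.

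The ATF4 targets carried the largest changes. Of the 11, 8 fell (72.7%, against 20.8% of all tested genes), 1 rose (9.09%, against 21.0%) and 2 did not pass, and their median log2 fold change was -0.52, where that of all tested genes was -0.01. The sum of their transcripts was 2870 ± 132 CPM in WT and 2184 ± 68.4 CPM in knockout libraries (mean ± SD, n = 3 each).

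*Chac1*, which degrades glutathione and is a late target of ATF4 and CHOP, stood at 44.1, 50.3 and 52.1 CPM in WT replicates 1 to 3, against 24.2, 16.6 and 20.3 CPM in knockout replicates 1 to 3, an order of libraries kept for every gene that follows. Ratios are knockout over WT on the log2 scale, with the standard error (SE). The highest knockout value was well below the lowest WT value. Its log2 ratio was -1.26 ± 0.11 SE (edgeR adjusted p = 1.91e-06). *Ddit4*, an inhibitor of mTORC1 signaling that answers to ER stress and to hypoxia, was at 426, 499 and 475 CPM in the WT libraries, against 227, 140.5 and 199.9 CPM in the knockout. All knockout libraries were under 50% of the WT mean, with a log2 ratio of -1.30 ± 0.13 SE (edgeR adjusted p = 5.92e-06). *Vldlr*, a lipoprotein receptor induced by PERK signaling, had 19.99, 24.2 and 23.7 CPM in WT ASCs and 11.7, 7.81 and 11.6 CPM in *Bdh2*-knockout ASCs. The groups did not overlap, and the log2 ratio was -1.13 ± 0.13 SE (edgeR adjusted p = 2.43e-05).

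*Trib3*, a pseudokinase that restrains ATF4 and AKT, was at 63.9, 69.7 and 71.6 CPM in the WT libraries, against 39.9, 34.9 and 44.4 CPM in the knockout. This is 58.1% of the WT mean, a log2 ratio of -0.79 ± 0.08 SE (edgeR adjusted p = 6.31e-06). *Asns*, asparagine synthetase, is among the most abundant members. It was at 657, 626 and 653 CPM in the WT libraries, against 448, 441 and 460 CPM in the knockout, and the libraries of each genotype lay close together. Its log2 ratio of -0.52 ± 0.04 SE (edgeR adjusted p = 2.19e-06) was among the most precise of the set. *Fgf21*, a hormone gene that ATF4 induces in stressed tissues, was represented by only 15, 20 and 25 reads in the WT libraries against 9, 7 and 5 in the knockout. At this depth its level was 0.773, 0.991 and 0.989 CPM in WT ASCs against 0.327, 0.257 and 0.209 CPM in the knockout, without overlap. The log2 fold change was -1.77 with a standard error of 0.35 (adjusted p = 0.00142 from edgeR), the widest error of all members.

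The amino acid transporters fell by less. *Slc7a5*, which imports large neutral amino acids, had a log2 fold change of -0.36 (SE 0.06) and *Slc7a1*, an importer of arginine and lysine, of -0.25 (SE 0.05). The tRNA synthetases *Aars* (alanine) and *Wars* (tryptophan) did not pass, at -0.11 (adjusted p = 0.0661) and 0.13 (adjusted p = 0.155, both from edgeR). *Aars* passed as lower with library totals (-0.17) and among genes with a mean count of at least 50 (-0.12). Its value is uncertain, since 22.4% of the 50-base stretches of its longest transcript also occur in transcripts of *Exosc6*, whose exons lie over part of *Aars* on the same strand. *Sesn2*, a leucine sensor that holds back mTORC1, was the 1 ATF4 target that passed as higher. It was at 159, 162 and 191 CPM in the WT libraries, against 201.0, 216 and 213 CPM in the knockout, a rise with a log2 ratio of 0.30 ± 0.07 SE (edgeR adjusted p = 0.00316). *Sesn2* is also a known target of p53 and of NRF2.

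**Figure D2:**
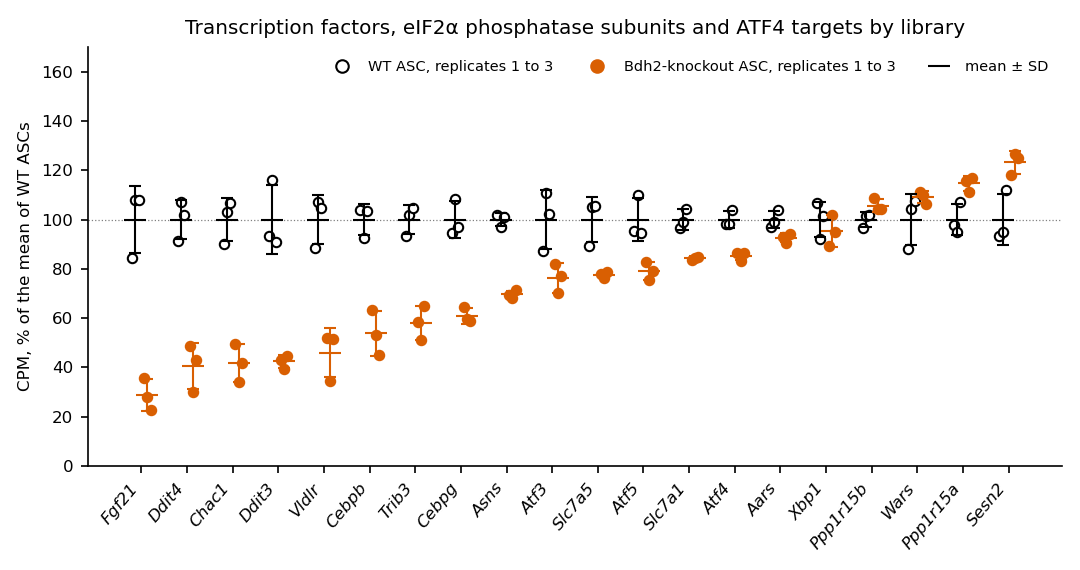
CPM of the ATF4 targets, stress transcription factors and eIF2α phosphatase subunits in each library, in percent of the mean of the WT ASCs (open circles, WT ASC replicates 1 to 3, filled circles, Bdh2-knockout ASC replicates 1 to 3, bars, mean ± SD), ordered by fold change. The knockout means run from 28.8% of WT for Fgf21 to 123% for Sesn2, and from Fgf21 to Aars all knockout values lie under all WT values.

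Of the 9 stress transcription factors and phosphatase subunits, 6 fell (66.7%, against 20.8% of all tested genes), 1 rose (11.1%, against 21.0%) and 2 did not pass, at a median log2 ratio of -0.34. The largest decrease was that of *Ddit3*, which encodes CHOP, the pro-apoptotic factor at the end of the PERK branch. *Ddit3* (chromosome 10, 127290774 to 127296288, plus strand) was at 16.1, 20.01 and 15.7 CPM in the WT libraries, against 7.44, 6.82 and 7.72 CPM in the knockout. The knockout libraries held 42.5% of the WT mean and did not overlap with it (log2 ratio -1.23 ± 0.11 SE, edgeR adjusted p = 2.40e-06). *Cebpg*, a partner with which ATF4 binds the CARE, was at 44.9, 51.5 and 46.0 CPM in the WT libraries, against 30.7, 28.3 and 27.8 CPM in the knockout, again without overlap. This is a log2 ratio of -0.71 ± 0.07 SE (edgeR adjusted p = 3.53e-06). *Cebpb*, another C/EBP partner, went from 10.7, 9.56 and 10.7 CPM to 6.53, 5.50 and 4.63 CPM, a log2 ratio of -0.89 ± 0.13 SE (edgeR adjusted p = 1.32e-04). Of its exon bases 20.7% lie under exons of *Tmem189*, which is read from the opposite strand, and whether the counting used strand is not given in the sources used here.

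*Atf4* itself moved by less than most of its targets. Its transcript was at 419.2, 419.1 and 444 CPM in the WT libraries, against 369.0, 355 and 369.4 CPM in the knockout, so the groups did not overlap. The log2 ratio was -0.23 ± 0.05 SE (edgeR adjusted p = 0.00169). ATF4 is controlled largely at translation, which RNA counts do not show. *Atf3*, which limits the response, was at 8.35, 10.6 and 9.82 CPM in the WT libraries, against 7.88, 6.71 and 7.39 CPM in the knockout. Its log2 ratio of -0.39 ± 0.11 SE (edgeR adjusted p = 0.0152) did not pass without WT ASC replicate 2 or without *Bdh2*-knockout ASC replicate 2. *Atf5*, a relative of ATF4 under similar translational control, had a log2 fold change of -0.34 (SE 0.07).

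*Ppp1r15a* encodes GADD34, the stress-induced subunit that brings a phosphatase to eIF2α and ends the response. Although ATF4 and CHOP are known to induce it, it was not lower. It was at 47.4, 45.9 and 51.9 CPM in the WT libraries, against 56.0, 53.9 and 56.6 CPM in the knockout, with a log2 ratio of 0.19 ± 0.06 SE (edgeR adjusted p = 0.0141). The call was lost with library totals (0.14), with the hepatocyte score in the fit (0.12), and when WT ASC replicate 1 or 2 was left out. Its constitutive counterpart *Ppp1r15b* did not pass (0.08, edgeR adjusted p = 0.203). *Xbp1*, the target of IRE1 splicing, was at 38.8, 33.6 and 36.9 CPM in the WT libraries, against 32.5, 37.1 and 34.6 CPM in the knockout. Its groups overlapped and its log2 ratio was -0.07 (edgeR adjusted p = 0.440).

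Among the 6 stress sensors, 3 fell (50%, against 20.8% of all tested genes), 1 rose (16.7%, against 21.0%) and 2 did not pass, at a median log2 ratio of -0.13. *Ern1*, the IRE1 kinase and nuclease, changed most. It was at 17.1, 19.6 and 17.3 CPM in the WT libraries, against 12.7, 12.3 and 12.7 CPM in the knockout, 70.0% of WT (log2 ratio -0.51 ± 0.08 SE, edgeR adjusted p = 2.25e-04). The other ER sensors showed no difference beyond their spread. *Eif2ak3* was at 22.3, 26.6 and 25.7 CPM in the WT libraries, against 26.1, 26.5 and 27.0 CPM in the knockout (0.09, adjusted p = 0.314). *Atf6* was at 43.0, 47.3 and 41.8 CPM in the WT libraries, against 39.2, 43.7 and 43.6 CPM in the knockout (-0.06, adjusted p = 0.460, both from edgeR). The kinases outside the ER split. *Eif2ak1* (HRI, which senses heme shortage) rose with a log2 ratio of 0.35 ± 0.05 SE (edgeR adjusted p = 1.48e-04), although 11.6% of its exon bases lie under exons of genes on the opposite strand. *Eif2ak2* (PKR) fell with -0.33 (SE 0.07) and *Eif2ak4* (GCN2, the sensor of uncharged tRNA) with -0.20 (SE 0.05). The call of *Eif2ak4* was lost without *Bdh2*-knockout ASC replicate 2.

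Of the 15 ER chaperones and folding enzymes, 6 rose (40%, against 21.0% of all tested genes), 2 fell (13.3%, against 20.8%) and 7 did not pass, at a median log2 ratio of 0.10 and a largest change of 0.60. In all 53.3% of the class passed, where 41.7% of all tested genes did. Of the genes with a mean count of at least 50, which takes in all of this class, 50% were called. The genotypes did not overlap in 8 of the 15, near the 52.4% of all tested genes. The summed level of the class went from 3957 ± 90.8 CPM to 4310 ± 92.6 CPM in the knockout (mean ± SD, n = 3 each). When the null was a change of up to 1.2-fold, 2 rose (13.3%, against 7.07% of all tested genes) and 0 fell (7.59% of all tested genes). The primitive endoderm markers rose in the same libraries, and their part in these changes was not tested. In bulk RNA more cells of a type and more RNA per cell cannot be told apart.

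*Dnajb11*, a J-domain partner of BiP, rose most. It was at 63.2, 66.0 and 70.5 CPM in the WT libraries, against 101.0, 106 and 97.0 CPM in the knockout, 152% of the WT mean without overlap (log2 ratio 0.60 ± 0.06 SE, edgeR adjusted p = 4.86e-06). *Hspa5*, which encodes BiP, the central ER chaperone that also holds the sensors inactive, was at 454, 417 and 403 CPM in the WT libraries, against 558, 582 and 559.6 CPM in the knockout. All knockout libraries were above all WT libraries (log2 ratio 0.42 ± 0.05 SE, edgeR adjusted p = 4.80e-05). *Calr*, calreticulin, which folds glycoproteins and stores calcium, went from 415, 443 and 437 CPM to 540.5, 579 and 535 CPM (0.35 ± 0.05, edgeR adjusted p = 1.08e-04). Smaller increases were those of *Pdia3*, a disulfide isomerase that works with calreticulin (0.23), *Creld2* (0.22) and *P4hb*, protein disulfide isomerase (0.21).

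*Hsp90b1*, the ER member of the HSP90 family, was at 567, 570.4 and 500.2 CPM in the WT libraries, against 527, 514 and 507 CPM in the knockout, with overlap between the genotypes (-0.08, edgeR adjusted p = 0.255). It passed as lower when WT ASC replicate 3 was left out (-0.14), and *Hyou1* then passed as higher (0.16). *Canx*, *Manf*, *Hyou1*, *Dnajc3*, *Dnajb9* and *Pdia4*, which include further BiP cofactors and a membrane-bound glycoprotein chaperone, did not pass either, at log2 fold changes from -0.07 to 0.12. *Pdia6*, a disulfide isomerase that also ends IRE1 signaling, fell (-0.36 ± 0.06, edgeR adjusted p = 2.46e-04), and so did *Sdf2l1*, a cofactor of BiP (-0.35 ± 0.06, edgeR adjusted p = 5.86e-04). Cofactors of BiP moved in both directions. Of the 8 members with an ERSE, 4 rose, 1 fell and 3 did not pass. Of the 7 with a CARE, 6 fell and 1 did not pass, and *Herpud1* among them also holds the ERSE-II. Of all tested genes 21.0% rose and 20.8% fell, and the difference between these few members was not tested. Of the ATF4 targets searched without a CARE match, *Ddit4* (-1.30), *Trib3* (-0.79) and *Slc7a1* (-0.25) fell too, while *Sesn2* rose (0.30).

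**Figure D3:**
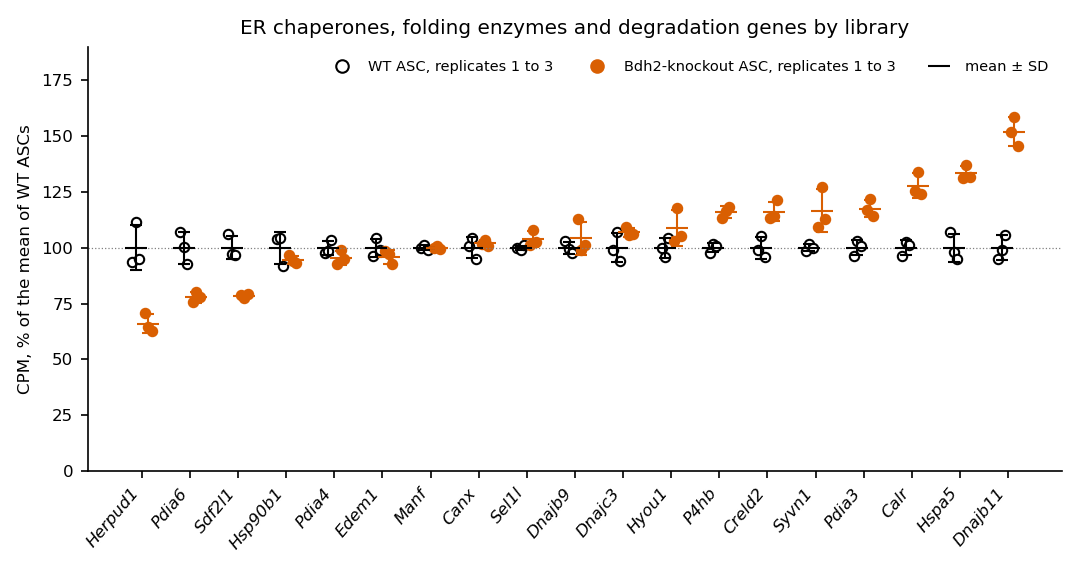
CPM of the ER chaperones, folding enzymes and ER-associated degradation genes in each library, in percent of the mean of the WT ASCs (open circles, WT ASC replicates 1 to 3, filled circles, Bdh2-knockout ASC replicates 1 to 3, bars, mean ± SD), ordered by fold change. The knockout means run from 66.0% of WT for Herpud1 to 152% for Dnajb11.

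Of the 4 genes of ER-associated degradation, which sends misfolded proteins to the proteasome, 1 fell, 1 rose and 2 did not pass. This is 25% in each direction, near the 20.8% and 21.0% of all tested genes. *Herpud1*, a scaffold of the degradation complex, was at 25.9, 30.9 and 26.3 CPM in the WT libraries, against 19.6, 17.9 and 17.4 CPM in the knockout. The groups did not overlap (log2 ratio -0.60 ± 0.08 SE, edgeR adjusted p = 8.41e-05). *Syvn1*, the ubiquitin ligase HRD1, had a log2 ratio of 0.22 (edgeR adjusted p = 0.0140), which did not pass with library totals (0.16) or without *Bdh2*-knockout ASC replicate 2 (0.16). Its adaptor *Sel1l* (0.05) and the mannosidase-like *Edem1* (-0.06) did not pass.

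Compared per length, in FPKM derived here with the gene lengths listed in the table, the most abundant member of the ATF4 arm in WT ASCs was *Ddit4* (266 ± 21.1, SD, n = 3), followed by *Asns* (236 ± 6.16) and *Atf4* (181 ± 5.96). The first 2 differed by less than 2 SD of *Ddit4*. In *Bdh2*-knockout ASCs the order was *Asns* (164 ± 3.50), *Atf4* (155 ± 3.37) and *Ddit4* (108 ± 25.2). Among the chaperones *P4hb* (164 ± 3.39), *Calr* (149.8 ± 4.99), *Hsp90b1* (135 ± 9.80), *Pdia3* (132 ± 4.46) and *Canx* (130.3 ± 6.20) led in WT ASCs, where the last 3 were not separated by their SDs. In *Bdh2*-knockout ASCs *Calr* (192 ± 8.31) and *P4hb* (190.5 ± 4.32) were level. The sensors were at low levels, from 2.20 ± 0.169 for *Ern1* to 9.52 ± 0.243 for *Eif2ak1* in WT ASCs.

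The knockout libraries did not share the extreme values evenly. Of the 20 members that fell, *Bdh2*-knockout ASC replicate 2 had the lowest of the knockout values in 14, and *Bdh2*-knockout ASC replicate 1 had the highest in 11. Of the 10 that rose, replicate 2 had the highest knockout value in 6 and replicate 1 in 0. These orders were not counted over all tested genes, so they cannot be read as particular to the members. When each library was dropped in turn, log2 ratios ran between -1.40 and -1.13 for *Chac1*, -1.44 and -1.12 for *Ddit4*, -1.30 and -1.12 for *Ddit3*, 0.38 and 0.47 for *Hspa5*, and 0.57 and 0.65 for *Dnajb11*.

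Further genes of these pathways were taken from lists made from general knowledge, with earlier results of these data known. Their shares are therefore a description and not independent support. Of 24 further amino acid response genes, 19 fell and 2 rose (79.2% and 8.33%, against 20.8% and 21.0% of all tested genes), at a median log2 ratio of -0.55. The largest decreases were those of *Nupr1*, a stress-induced chromatin protein (-1.01, SE 0.09), *Gpt2*, mitochondrial alanine aminotransferase (-0.97, SE 0.07), *Gdf15*, a stress hormone (-0.93, SE 0.10), and *Jdp2*, a bZIP repressor (-0.85, SE 0.14). The 2 that rose were the amino acid transporters *Slc38a2* (0.32, SE 0.05) and *Slc7a3* (0.24, SE 0.05). Of 18 further cytosolic tRNA synthetases, 8 fell and 3 rose (44.4% and 16.7%) with a median of -0.09. No change in them exceeded the -0.42 of *Sars* (seryl-tRNA synthetase), and the largest increase was that of *Farsa* (0.29), a subunit of the phenylalanyl enzyme.

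Of 45 further genes of ER translocation, folding and degradation, 13 rose and 8 fell (28.9% and 17.8%, against 21.0% and 20.8% of all tested genes), with a median of 0.06. The total called, 46.7%, was near the 41.7% of all tested genes. The increases were led by *Selenos* (0.56, SE 0.07), a selenoprotein of the degradation complex, the ER-bound factor *Creb3l1* (0.54, SE 0.10) and *Txndc11* (0.53, SE 0.08). The largest decrease was that of *Ero1l* (-0.73, SE 0.11), the oxidase that recharges disulfide isomerases and that CHOP and hypoxia induce. It was followed by *Sil1*, a nucleotide exchange factor of BiP (-0.46, SE 0.08). Of 12 immediate early genes, which respond to handling of cells, 5 were lower (41.7%, against 20.8% of all tested genes) and 1 was higher (8.33%, against 21.0%), at a median of -0.23. *Fosb* (-1.06, SE 0.15) and *Ier3* (-1.06, SE 0.16) fell most, *Jun* fell by less (-0.47, SE 0.09), and *Egr1* rose (0.35, SE 0.05). The sum over the 12, carried mainly by *Ier2*, *Egr1* and *Dusp1*, was 697 to 779 CPM in WT ASCs and 722 to 751 CPM in the knockout. These genes moved in the same libraries as the members, and their part in the members' changes was not tested.

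**Figure D4:**
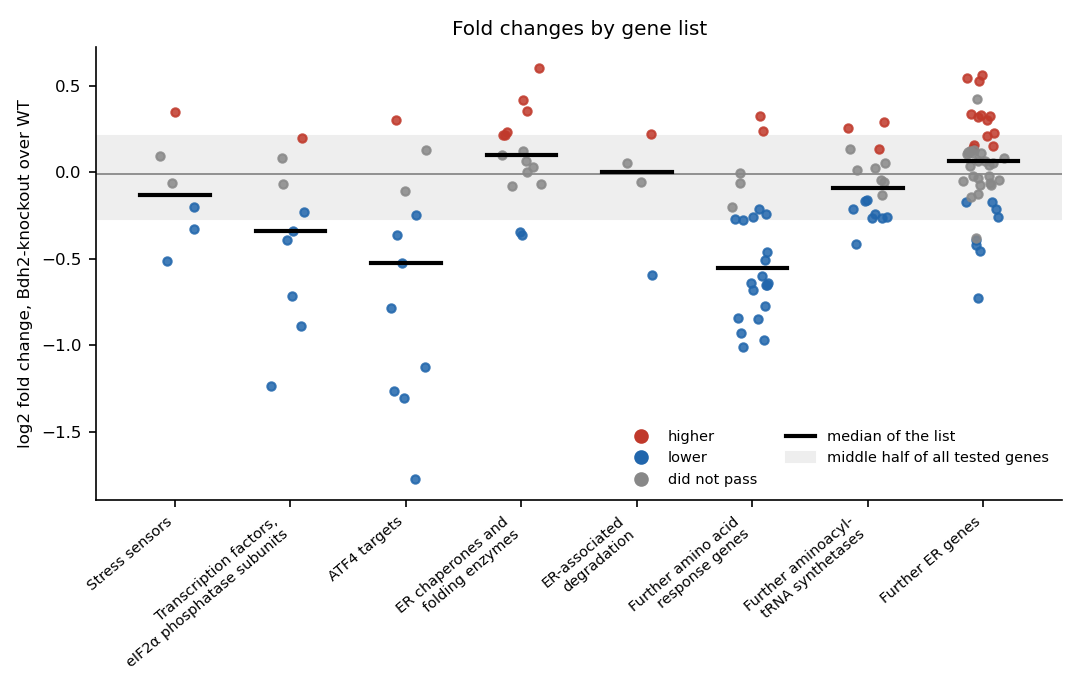
Log2 fold changes (Bdh2-knockout over WT ASCs) of the 5 member classes and 3 further lists (points, genes, black lines, medians). The grey band spans the quartiles of all tested genes, -0.27 to 0.21, and the medians of the ATF4 targets (-0.52), of the further amino acid response genes (-0.55) and of the stress transcription factors and phosphatase subunits (-0.34) lie below it, while those of the other classes and lists lie inside.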

How the data were processed

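RNA of 3 WT ASC and 3 *Bdh2*-knockout ASC libraries was analysed. The authors trimmed and filtered their reads, aligned them to GRCm38 with Hisat2 (2.0.5 in the submitters' processing notes), counted with FeatureCounts and deposited raw counts. The annotation release, strand setting and treatment of multiply mapped reads are not given in the sources used here. All members have the same position in GENCODE M21, which gave exons and transcripts.

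Counts were tested with edgeR 4.0.16 in R 4.3.3 (TMM, filterByExpr, quasi-likelihood test, genotype as only factor, Benjamini-Hochberg over all tested genes, threshold 0.05), after a check on simulated data. Standard errors are the fold change over the root of F. Alternatives used DESeq2 1.42.0 and limma 3.58.1. Within a genotype the libraries differed beyond counting noise (chi-square per gene 4.08 to 9.59). Members and lists were chosen with earlier results of these data known. Named are all members, with values in every sample for those called with a log2 fold change of at least 0.5 and for fixed pathway nodes, and the largest changes of each further list. The floor of 3 counts covers counting error only, and standard errors include the spread between libraries. Promoters are RefSeq starts on GRCm38.p6.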

Additional observations from a re-analysis of the deposited data

How the results depend on the processing

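The 15 alternatives were DESeq2, limma-voom, median-of-ratios factors, library totals, no filter, a minimum mean of 50 counts, the replicate block, a hepatocyte covariate, a test against a fold change of 1.2, and each library left out. Called in the same direction under all of them were 12 members (10 lower, 2 higher), beside 11.7% of all tested genes, and *Fgf21* was called lower under each of the 14 that tested it. Replicate numbers did not pair the libraries (correlations of deviations -0.16, 0.005 and 0.18), and not every library correlated best with its own number. Under the replicate block 20 members fell and 10 rose, as without it, and 6452 genes were called instead of 6996.

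Against a fold change of 1.2, the number of all tested genes called higher was 1185 (7.07%) and of all tested genes called lower 1272 (7.59%). Among members 2 were higher and 11 lower. By class 0 sensors rose and 1 fell, 0 transcription factors or phosphatase subunits rose and 3 fell, 0 ATF4 targets rose and 6 fell, 2 chaperones rose and 0 fell, and 0 degradation genes rose and 1 fell. Library totals shifted the median of all genes to -0.07 and gave medians of -0.13 for all members and -0.19 for sensors, and a median log2 fold change of ER-associated degradation of -0.059, with 0 higher among transcription factors or phosphatase subunits and 0 among degradation genes. With the hepatocyte covariate 0 transcription factors or phosphatase subunits were higher. Leaving out single libraries gave 0 to 1 higher transcription factors or phosphatase subunits with a median of -0.37 to -0.27, 1 to 2 higher ATF4 targets (2 without WT ASC replicate 3, where *Wars* passed), and 0 to 1 higher degradation genes. Without WT ASC replicate 3 *Hyou1* also passed as higher and *Hsp90b1* as lower. Signs turned only in members that did not pass. With library totals these were *Canx* (-0.029), *Manf* (-0.057) and *Sel1l* (-0.0033), and at a mean count of 50 *Manf* (-0.011). With single libraries left out *Atf6* ranged from -0.097 to 0.0023, *Canx* from -0.0049 to 0.061 and *Manf* from -0.0049 to 0.019. The cause was not tested. Depth limits *Fgf21*, with at most 25 counts in a library.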

Other observations

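*Ddit4*, *Ero1l* and *Vegfa* are also known as hypoxia-inducible genes, and all fell (*Vegfa* by 0.60 on the log2 scale, standard error 0.12). Of 20 other hypoxia-inducible genes, a list compiled after the values were seen and given without a test, 5 were higher (25%, against 21.0% of all tested genes), 4 lower (20%, against 20.8%) and 11 did not pass, at a median log2 fold change of -0.10. These shares are near those of all tested genes, but they compare genotypes and not single libraries. In all of the 20 but *Pfkfb4* and *Mxi1*, *Bdh2*-knockout ASC replicate 2 had the lowest knockout value, as in *Ddit4*, *Ero1l* and *Vegfa*. This order was not counted over all tested genes, and a part of hypoxia in the members' changes was not tested. Of the fibroblast markers 6 of 8 could be tested, of which 1 was lower (*Col1a1*, -0.62, standard error 0.12).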
